A study of Mus musculus with 9 samples.

Results

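Fshr, Lhcgr, Prlr, Cited1, Cebpa, Cebpb, Rgs2, Amh and Amhr2 were examined as the receptors and regulators of the passage of a follicle cell from its growing to its luteal state. The members were the 9 genes named above, chosen by symbol from the 54838 genes of the deposited matrix, and each had 1 row in it. Expression was measured by RNA sequencing of adult mouse corona radiata, the cumulus granulosa cells around the oocyte, after PMSG and hCG, hormones that drive follicle growth and ovulation, with a treatment term "J4" that the labels leave unexplained. There were 3 libraries for each of 3 genotypes: LXR DKO carrying the transgene TG-AMH-LXRb (transgenic), LXR DKO alone, in which both LXR genes are knocked out, and wild type (WT). The transgenic libraries thus share the double knockout with the LXR DKO libraries. The labels describe neither the promoter nor the insert of the transgene, and nothing says that the libraries of a genotype came from separate animals. P-values therefore measure only the spread between these libraries, which may be technical.

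Before ovulation, FSH acts on granulosa cells through its receptor Fshr and cyclic AMP, and these cells later gain the LH receptor Lhcgr. Cumulus cells carry little of it and receive the LH signal mainly through EGF-like factors from the follicle wall. After ovulation, granulosa-derived cells become luteal cells, in which LH and prolactin receptors maintain progesterone output in rodents, and the C/EBP transcription factors Cebpa and Cebpb are needed for this change in the mouse ovary. Amh, made by granulosa cells of small follicles, acts through its type II receptor Amhr2 and restrains the response to FSH. The liver X receptors (LXR) sense oxysterols and, as nuclear receptors, switch on genes of sterol export and lipid handling.

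Values are RPKM, reads scaled to exon length and library size, as deposited, so levels can be set side by side between genes only as far as the exon length fits the transcripts present. Read numbers could be worked back from the RPKM values for 98.1% of genes with a value above 0, and these genes held 29822412 to 44049966 reads per library. The knocked-out receptor gene Nr1h2 (LXR beta) measured 4.83, 5.28 and 6.70 RPKM in transgenic libraries and 3.57, 2.85 and 3.03 RPKM in LXR DKO, against 45.7, 39.7 and 39.7 RPKM in WT. The transgenic libraries thus lay above every LXR DKO library and stayed below every WT library. Nr1h3 (LXR alpha) measured 0.395, 0.819 and 0.539 RPKM in transgenic and 1.08, 0.713 and 0.933 RPKM in LXR DKO libraries, against 3.50, 5.72 and 4.95 RPKM in WT. The libraries held RNA of other cells. Summed over 20 oocyte markers the level was 663 RPKM in LXR DKO 1, against 1110 RPKM in WT 1, and at most 85.1 RPKM elsewhere. Summed over 12 oviduct epithelium markers it was 1940 to 2520 RPKM in transgenic, 621 to 1160 RPKM in LXR DKO libraries and 410 to 2210 RPKM in WT libraries, where WT 3 was the highest. WT 3 also held 9880 RPKM over 7 red cell markers, against at most 971 RPKM in any other library. Summed over 15 macrophage markers the level was 416 to 601 RPKM in transgenic, 681 to 1300 RPKM in LXR DKO libraries and 556 to 1290 RPKM in WT. All 12 granulosa markers were found in the matrix and 10 of them had at least 1 RPKM in all 9 libraries. Of 6 theca and stroma markers 1 had, Ptch1 at 2.39 to 5.0 RPKM, while Cyp17a1 and Insl3 stayed at or under 0.119 RPKM. The summed granulosa level was 429 to 528 RPKM in transgenic, 394 to 579 RPKM in LXR DKO libraries and 690 to 761 RPKM in WT. In bulk samples, fewer cells of a type and less RNA per cell cannot be told apart.

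Over all 9 libraries the mean level ran from 145 RPKM for Cebpb and 114 RPKM for Rgs2 through 22.4 RPKM for Amhr2, 15.4 RPKM for Cebpa, 9.77 RPKM for Prlr and 6.44 RPKM for Fshr to 1.63 RPKM for Cited1, 1.21 RPKM for Lhcgr and 0.338 RPKM for Amh. Neighbours in this order overlapped in their ranges, except that every Rgs2 value lay above every Amhr2 value and every Fshr value above every Cited1 value. Of the 16422 genes that passed the filter on low values (at least 1 RPKM in at least 3 libraries), 98.2% had a lower mean than Cebpb and 7.15% a lower mean than Lhcgr. The filter passed 8 of the 9 members, all but Amh.

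Among these 8 genes, Cited1 was the 1 gene that fell in LXR DKO against WT, and Cited1 and Prlr fell in transgenic against WT. Cited1 averaged 1.13 ± 0.358 RPKM in transgenic and 1.09 ± 0.208 RPKM in LXR DKO libraries, against 2.67 ± 0.115 RPKM in WT (SD, n = 3 each). Prlr averaged 6.95 ± 1.06 RPKM in transgenic, 9.48 ± 0.946 RPKM in LXR DKO libraries and 12.9 ± 2.05 RPKM in WT (SD, n = 3 each). None of the 8 rose in any comparison. The test was limma on log2(RPKM + 1) over all genes, with Benjamini-Hochberg adjustment and a threshold of 0.05. The share of all tested genes past it was 10.6% for LXR DKO against WT (1 of the 8 members), 11.9% for transgenic against WT (2 of 8) and 0.116% for transgenic against LXR DKO (0 of 8), and on so few genes the members' counts are not set apart from these shares. Genes that fell made up 7.12% in LXR DKO and 6.72% in transgenic against WT, and genes that rose 3.47% and 5.15%. Between transgenic and LXR DKO, Prlr and Lhcgr were the 2 members with an unadjusted p under 0.05. The comparisons of LXR DKO and of transgenic with WT share the same 3 WT libraries, so like values in both are not independent.

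**Figure D1:**
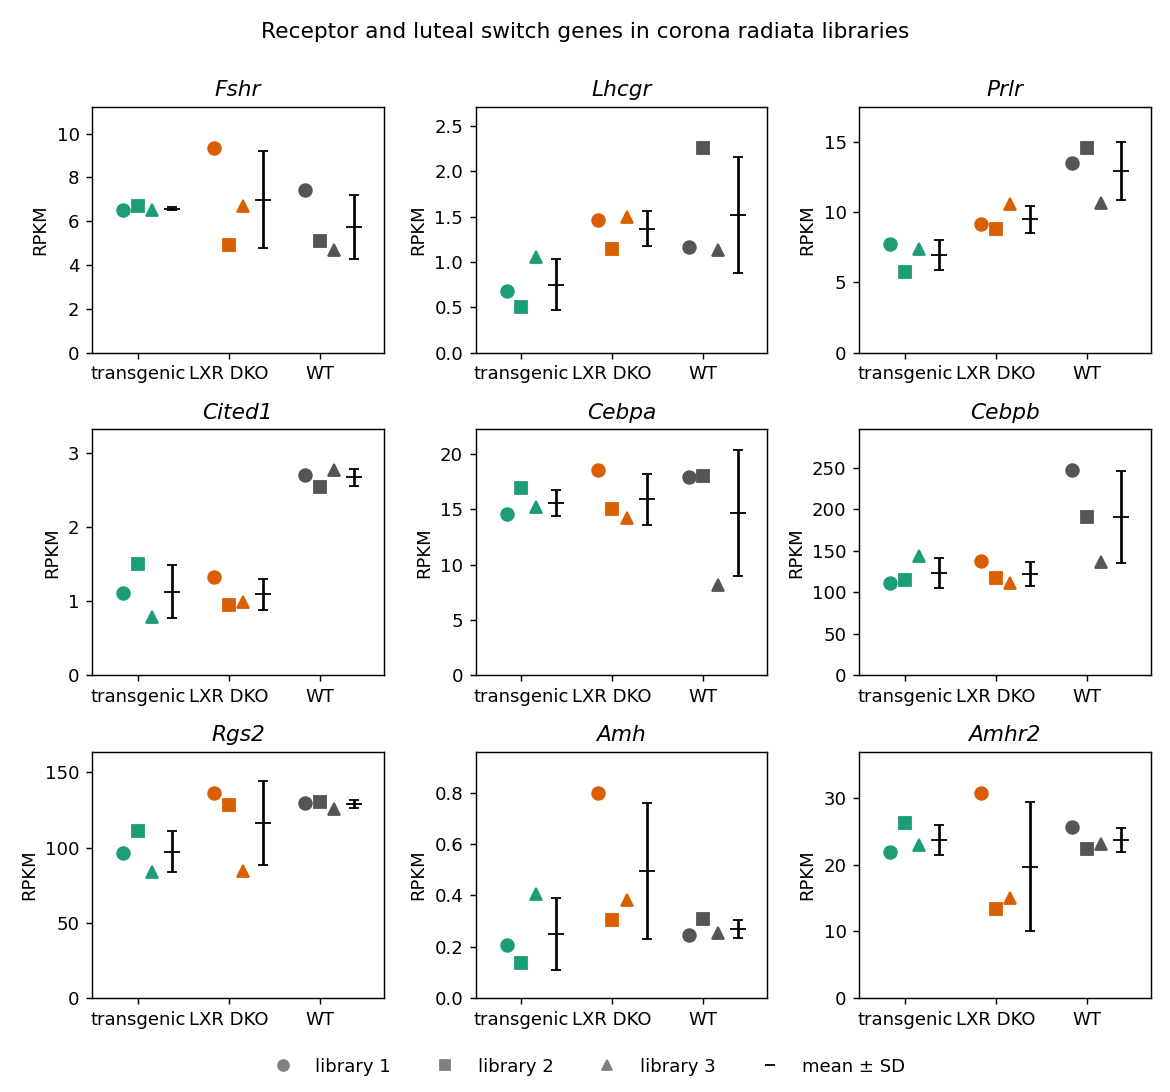
RPKM of the 9 genes (1 panel each, own axis from 0) in the 3 libraries of the transgenic, LXR DKO and WT genotypes, with the mean and SD as a bar beside them. Cited1 is at 0.790 to 1.50 RPKM in the 6 transgenic and LXR DKO libraries, against 2.54 to 2.76 RPKM in WT, and Prlr is lowest in transgenic, then LXR DKO, and highest in WT.

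Fshr, the FSH receptor gene (ENSMUSG00000032937, mm10 chromosome 17, 88984952 to 89200675, minus strand), is the receptor that PMSG engages. On the same chromosome and strand lies Lhcgr (ENSMUSG00000024107, 88716481 to 88791990), the receptor for LH and hCG. The 200 bases before the start of each are shown because the switch from one receptor to the other is the subject here (RefSeq, GRCm38.p6, minus strand, 5′ to 3′). Capitals mark a CACGTG E box in Fshr, chr17:89200676-89200875, and GGGCGG GC boxes, read on both strands, in Lhcgr, chr17:88792015-88792214.
Fshr: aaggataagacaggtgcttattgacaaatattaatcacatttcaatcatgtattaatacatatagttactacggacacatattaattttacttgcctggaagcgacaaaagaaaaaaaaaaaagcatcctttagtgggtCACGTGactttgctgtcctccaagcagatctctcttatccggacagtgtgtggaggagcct
Lhcgr: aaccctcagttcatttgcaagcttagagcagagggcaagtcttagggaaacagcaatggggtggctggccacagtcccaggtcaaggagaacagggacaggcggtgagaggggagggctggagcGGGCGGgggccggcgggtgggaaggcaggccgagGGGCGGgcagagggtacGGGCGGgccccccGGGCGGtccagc
The E box began 61 bases before the start of Fshr, and 5.26% of 32851 promoters of the same length hold one. The 4 GC boxes of Lhcgr began 76, 42, 25 and 12 bases before its start, and 31% of promoters hold at least 1. These matches describe the letters only.

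Fshr measured 6.52, 6.68 and 6.53 RPKM in transgenic 1 to 3, 9.36, 4.93 and 6.69 RPKM in libraries 1 to 3 of LXR DKO, and 7.43, 5.12 and 4.68 RPKM in WT 1 to 3. The highest values of LXR DKO and of WT were those of LXR DKO 1 and WT 1, the 2 libraries with the most oocyte RNA, and all groups overlapped. No comparison passed the threshold: the log2 fold change was 0.23 ± 0.21 (SE) for LXR DKO minus WT (95% interval -0.24 to 0.70, limma adjusted p = 0.538) and 0.19 ± 0.21 for transgenic minus WT (-0.28 to 0.66, adjusted p = 0.569). Differences in Fshr within these intervals were neither shown nor excluded with 3 libraries a group.

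Lhcgr measured 0.680, 0.509 and 1.06 RPKM in transgenic, 1.47, 1.15 and 1.50 RPKM in LXR DKO libraries, and 1.165, 2.26 and 1.13 RPKM in WT 1 to 3, from 121 to 640 reads a library. All 3 transgenic libraries lay below all libraries of the other genotypes, and LXR DKO and WT overlapped, with WT 2 the highest library. The mean of transgenic was 0.546 times that of LXR DKO (log2 fold change -0.45 ± 0.19, 95% interval -0.89 to -0.01, limma unadjusted 0.0472, adjusted p = 0.609) and 0.493 times that of WT (-0.51 ± 0.19, -0.95 to -0.07, adjusted p = 0.121). Neither passed the threshold. LXR DKO minus WT was -0.061 ± 0.19 (adjusted p = 0.882) and turned to 0.14 without WT 2 and to 0.009 without LXR DKO 2. Transgenic minus WT passed only when libraries were weighted by their estimated quality (-0.58, adjusted p = 0.0432, against 0.0683 to 0.286 over the omissions of 1 library). Groups that do not overlap in the lower direction made up 18.9% of tested genes for transgenic against WT, where 4 of the 8 members (Lhcgr, Prlr, Cited1 and Rgs2) were of this kind, and 7.05% for transgenic against LXR DKO, where Lhcgr and Prlr were. In the same libraries the oviduct markers were higher in transgenic than in LXR DKO in 12 of 12 genes and the smooth muscle markers in 6 of 6, with 0 past the threshold. The macrophage markers were lower in 15 of 15 tested genes, 1 past the threshold, and the luteal markers in 6 of 6 and the red cell markers in 5 of 5, with 0 past it. Their part in these differences was not tested.

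Rgs2 (ENSMUSG00000026360, chromosome 1, 143999338 to 144004161, minus strand) encodes a regulator of G protein signalling that limits the output of receptors coupled to Gq and is induced by gonadotropins. It measured 96.5, 111 and 84.0 RPKM in transgenic, 136, 129 and 84.6 RPKM in LXR DKO libraries, and 130, 130 and 126 RPKM in WT. The WT libraries were close together, whereas LXR DKO 3 lay with the transgenic libraries and apart from LXR DKO 1 and 2. All transgenic libraries were below all WT libraries, but the difference did not pass (0.756 times, -0.41 ± 0.18, limma adjusted p = 0.156). LXR DKO minus WT was -0.17 ± 0.18 (adjusted p = 0.59) and 0.042 without LXR DKO 3.

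Of 28 symbols listed for gonadotropin and cyclic AMP signalling, 27 were in the matrix and 21 were tested. Gnas was listed but was not among those tested. Over all tested genes, 3.47% rose in LXR DKO and 5.15% in transgenic against WT. Arrb1, the beta-arrestin gene whose product uncouples and internalises receptors, rose in LXR DKO and in transgenic libraries, and Adcy6, an adenylyl cyclase gene, rose in transgenic libraries. No other gene of the list passed against WT, 0 of 21 passed between transgenic and LXR DKO at an adjusted p under 0.05, and the medians were 0.01 for LXR DKO minus WT and -0.03 for transgenic minus WT, beside 0.017 and 0.015 over all genes. Arrb1 measured 4.38, 2.73 and 4.11 RPKM in transgenic and 2.89, 4.14 and 4.03 RPKM in LXR DKO, against 1.68, 1.59 and 1.34 RPKM in WT. Every WT library was below every other library, with log2 fold changes of 0.88 ± 0.17 in LXR DKO (limma adjusted p = 0.015) and 0.89 ± 0.17 in transgenic (0.0151). The first call was lost without LXR DKO 2 or 3 (adjusted p up to 0.0668) and the second without transgenic 1 or 3 (up to 0.0616). Adcy6 measured 4.07, 3.58 and 3.80 RPKM in transgenic against 2.49, 2.48 and 1.49 RPKM in WT (0.63 ± 0.14, adjusted p = 0.0266), a call lost without any one of the transgenic libraries (up to 0.089).

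RGS proteins speed up the return of G proteins to their resting form, and of 14 other RGS family genes 6 were tested. Over all tested genes, 3.47% rose and 7.12% fell in LXR DKO, and 5.15% rose and 6.72% fell in transgenic, against WT. In LXR DKO, Rgs16 rose (0.82 ± 0.17, limma adjusted p = 0.0193), and Rgs10 (-0.58 ± 0.15, 0.038) and Rgs12 (-0.39 ± 0.10, 0.0424) fell. In transgenic libraries Rgs16 rose (0.64 ± 0.17, 0.0451) and Rgs10 fell (-0.68 ± 0.15, 0.0217). Rgs16 measured 6.02, 9.24 and 5.39 RPKM in transgenic and 8.74, 7.63 and 7.06 RPKM in LXR DKO, against 3.99, 3.64 and 4.29 RPKM in WT. Rgs10 measured 4.36, 4.51 and 4.96 RPKM in transgenic and 6.73, 4.21 and 4.40 RPKM in LXR DKO, against 7.95, 8.04 and 8.04 RPKM in WT. Each of these calls was lost when single libraries were left out, with adjusted p up to 0.0606 for Rgs16 (without LXR DKO 2, LXR DKO 3, WT 1 or WT 2), 0.137 for Rgs10 (any library but LXR DKO 1) and 0.132 for Rgs12 (any but WT 3) in LXR DKO, and up to 0.121 for Rgs16 (any but WT 3) and 0.0747 for Rgs10 (any transgenic library, WT 1 or WT 2) in transgenic.

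**Figure D2:**
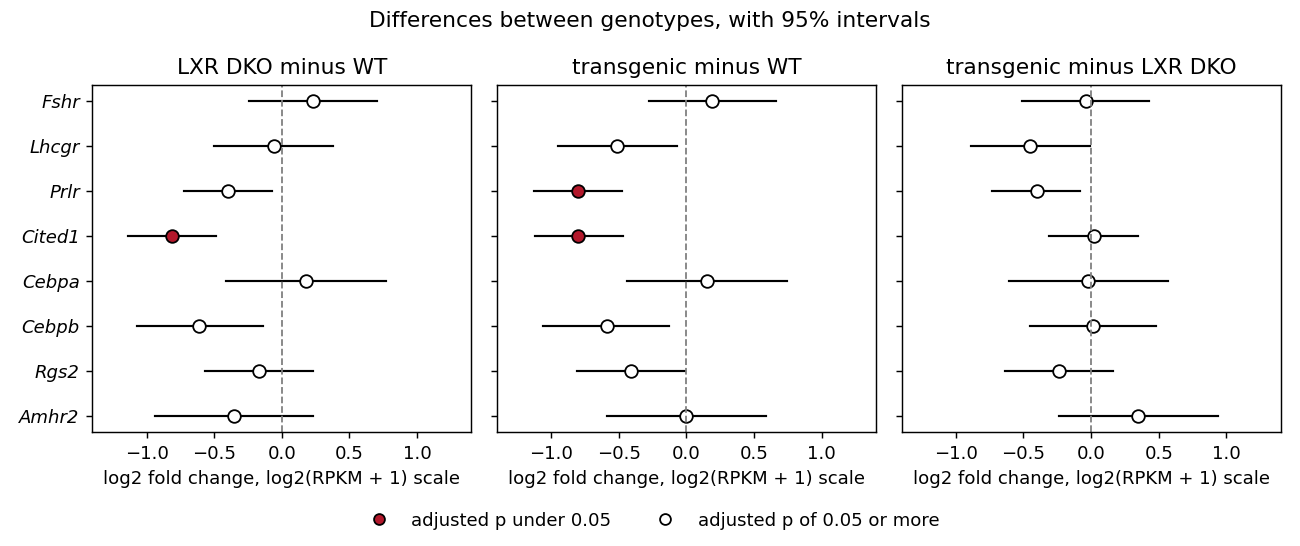
Log2 fold change of the 8 tested genes in the 3 comparisons, on the log2(RPKM + 1) scale, with 95% intervals as lines and filled points where the adjusted p was under 0.05. Filled points are Cited1 at -0.81 for LXR DKO minus WT, and Prlr and Cited1, both at -0.80, for transgenic minus WT.

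Prlr (ENSMUSG00000005268, chromosome 15, 10177238 to 10349180, plus strand) encodes the prolactin receptor, which signals through JAK2 and STAT5 and maintains the rodent corpus luteum. Long and short receptor forms are made from the gene, and a value per gene does not separate them. The 200 bases before the first of its 3 listed starts (chr15:10177038-10177237, RefSeq, GRCm38.p6, plus strand) are shown as those of 1 of the 2 genes that fell.
Prlr: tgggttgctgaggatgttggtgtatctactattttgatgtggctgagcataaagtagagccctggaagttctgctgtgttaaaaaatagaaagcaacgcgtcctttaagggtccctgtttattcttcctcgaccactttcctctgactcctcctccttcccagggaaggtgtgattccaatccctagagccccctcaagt
None of the 8 motifs searched on both strands occurred in this window, so it holds no capitals. The motifs were TGACG (the core of the cyclic AMP response element, in 15.7% of promoters), TGACGTCA (the full element, which contains the core, 1.47%), TTGCNNAA (C/EBP, 7.47%), CACGTG (5.26%), CAAGGTCA (NR5A receptors, 0.992%), GGGCGG (31%), TATAAA (9.96%) and the direct repeat of AGGTCA spaced by 4 bases (bound by LXR with RXR, 0.0152%). The last was in none of the 12 windows of the 8 members found in the RefSeq table. The window of another listed Prlr start (chr15:10293451-10293650) held a C/EBP match beginning 121 bases before that start.

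Prlr measured 7.76, 5.75 and 7.34 RPKM in transgenic, 9.13, 8.77 and 10.56 RPKM in LXR DKO libraries, and 13.5, 14.6 and 10.61 RPKM in WT 1 to 3, from 2740 to 9098 reads a library. The 3 genotypes did not overlap, with transgenic lowest and WT highest, although LXR DKO 3 and WT 3 were nearly level. Prlr fell in transgenic libraries to 0.539 times the WT mean (-0.80 ± 0.14, 95% interval -1.13 to -0.48, limma adjusted p = 0.0118). That call held in all 20 alternatives, with adjusted p of 0.00272 to 0.0487 and log2 fold changes of -0.93 to -0.58. LXR DKO libraries were at 0.736 times the WT mean, which did not pass (-0.40 ± 0.14, -0.72 to -0.07, adjusted p = 0.115). It passed without WT 3 (-0.52, adjusted p = 0.0379) and with weighted libraries (-0.48, 0.045). Transgenic libraries were at 0.733 times the LXR DKO mean, with adjusted p = 0.501 (-0.40 ± 0.14, unadjusted p = 0.0199). The share of tested genes whose groups do not overlap in the lower direction was 15.9% for LXR DKO against WT, where Prlr and Cited1 were of this kind.

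Beside the lower Prlr of the transgenic libraries, 4 of 15 macrophage genes fell against WT, while 2 of the 15 had positive log2 fold changes. All 12 oviduct genes had positive log2 fold changes, and 2 of them passed. Both summed levels overlapped with WT. For macrophage markers they were 416 to 601 RPKM in transgenic and 556 to 1290 RPKM in WT. For oviduct markers they were 1940 to 2520 RPKM in transgenic and 410 to 2210 RPKM in WT. The summed granulosa level was lower, at 429 to 528 RPKM in transgenic against 690 to 761 RPKM in WT without overlap. That sum weighs most on the highest markers, such as Inha at 180 to 208 RPKM in transgenic. Of 11 tested granulosa genes 3 passed the threshold, all lower, while 3 had positive log2 fold changes. The part of these markers in the result was not tested. Within WT, Prlr was lowest in WT 3, the library with the most oviduct and red cell RNA.

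The prolactin signalling genes moved in both directions. Of 15 tested of 16, 2 rose and 2 fell in LXR DKO (median 0.05) and 3 rose and 2 fell in transgenic libraries (median -0.01) against WT. The shares over all tested genes were 3.47% higher and 7.12% lower in LXR DKO, and 5.15% higher and 6.72% lower in transgenic. Socs2, a suppressor of cytokine signalling and STAT5 target, fell, measuring 9.57, 10.3 and 7.84 RPKM in transgenic and 9.75, 8.18 and 8.41 RPKM in LXR DKO, against 12.0, 13.1 and 12.8 RPKM in WT. All WT libraries were above all others (LXR DKO -0.48 ± 0.11, limma adjusted p = 0.0282; transgenic -0.42 ± 0.11, 0.0426). Grb2, an adaptor gene, fell in both (-0.38 ± 0.07, 0.0119, and -0.40 ± 0.07, 0.0103). Pim1, a kinase gene induced by STAT factors, rose to 11.4, 10.7 and 8.42 RPKM in transgenic and 13.2, 13.8 and 11.9 RPKM in LXR DKO, against 6.73, 6.36 and 3.96 RPKM in WT (LXR DKO 1.09 ± 0.18, 0.00742; transgenic 0.76 ± 0.18, 0.0298). Socs3 rose in LXR DKO against WT (0.48 ± 0.12, 0.038) and Pias3, a STAT inhibitor gene, in transgenic (0.34 ± 0.09, 0.0431). The calls of Grb2 against WT and of Pim1 in LXR DKO held over the omission of every library, but that of Grb2 in LXR DKO was lost with only the 2 genotypes compared in the fit (adjusted p = 0.0516). That of Pim1 in transgenic was lost without transgenic 1, transgenic 2 or WT 2 (adjusted p up to 0.0984). In LXR DKO those of Socs2 and Socs3 were lost without LXR DKO 2, LXR DKO 3, WT 1 or WT 2 (up to 0.104 and 0.123), that of Socs3 also without transgenic 1 or 3. In transgenic those of Socs2 and Pias3 were lost on leaving out any library but 1, which was LXR DKO 1 for Socs2 and WT 3 for Pias3 (up to 0.127 and 0.137). The signal carriers Jak2, Stat5a and Stat5b, named here after their values were seen, did not pass in any comparison. Jak2 measured 30.6, 27.1 and 28.4 RPKM in transgenic, 20.5, 31.1 and 28.9 RPKM in LXR DKO libraries and 28.4, 27.6 and 21.2 RPKM in WT. Its log2 fold change was 0.05 ± 0.16 for LXR DKO minus WT (limma adjusted p = 0.885) and 0.16 ± 0.16 for transgenic minus WT (0.538). In the same order, Stat5a had -0.13 ± 0.18 (0.701) and -0.18 ± 0.18 (0.513). Stat5b had -0.17 ± 0.15 (0.534) and -0.16 ± 0.15 (0.502).

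Cebpa (ENSMUSG00000034957, chromosome 7, 35119293 to 35121928) and Cebpb (ENSMUSG00000056501, chromosome 2, 167688915 to 167690418), both on the plus strand, encode transcription factors that LH induces or uses in granulosa cells as they luteinise. The window before Cebpb (chr2:167688715-167688914, plus strand) is shown for its 3 cyclic AMP response cores, beginning 180, 53 and 7 bases before the start, beside 2 GC boxes.
Cebpb: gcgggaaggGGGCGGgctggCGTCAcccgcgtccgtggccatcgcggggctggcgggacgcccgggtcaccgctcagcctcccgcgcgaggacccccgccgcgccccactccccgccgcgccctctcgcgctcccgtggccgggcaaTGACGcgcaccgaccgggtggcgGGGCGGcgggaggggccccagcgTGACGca
Cebpb shares 312 exonic bases with Tmem189 on the opposite strand, which reached 11.9 RPKM, and the strand setting of the counting is not given in the sources used here.

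Cebpb measured 112, 114 and 144 RPKM in transgenic, 138, 117.5 and 111 RPKM in LXR DKO libraries, and 247, 190 and 136 RPKM in WT 1 to 3. WT 1 and WT 2 stood above all other libraries, while WT 3 lay among the knockout libraries. LXR DKO libraries were at 0.639 times the WT mean (-0.61 ± 0.20, 95% interval -1.07 to -0.14, limma adjusted p = 0.0969) and transgenic libraries at 0.646 times (-0.59 ± 0.20, -1.06 to -0.13, adjusted p = 0.0928), and neither passed. Without WT 3 both passed (-0.83, adjusted p = 0.0159, and -0.82, 0.00906), as they did with weighted libraries (-0.83, 0.0121, and -0.80, 0.00703). Transgenic minus LXR DKO was 0.012 ± 0.20 (-0.45 to 0.48, adjusted p = 0.993).

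Cebpa measured 14.6, 16.9 and 15.2 RPKM in transgenic, 18.5, 15.0 and 14.2 RPKM in LXR DKO libraries, and 17.9, 18.0 and 8.13 RPKM in WT. The one value apart was again that of WT 3, and the groups overlapped in every comparison. LXR DKO minus WT was 0.18 ± 0.26 (-0.41 to 0.77, limma adjusted p = 0.72) and turned to -0.18 without WT 3. Cebpb relative to Cebpa within a library, as a difference of log2(RPKM + 1), was 2.85, 2.69 and 3.16 in transgenic, 2.83, 2.89 and 2.88 in LXR DKO and 3.71, 3.33 and 3.91 in WT. Here WT 3 was the highest library and no WT library overlapped the others. The difference was -0.78 for LXR DKO minus WT and -0.75 for transgenic minus WT, each with an exact two-sided permutation p = 0.1, the smallest that 3 against 3 libraries allow. Over the omission of single libraries and a pseudocount of 0.1, the first stayed between -0.94 and -0.65 and the second between -0.91 and -0.62. Transgenic minus LXR DKO was 0.04 (exact permutation p = 0.9).

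Other C/EBP genes and their regulators had 1 of 6 tested lower in each comparison with WT, where 7.12% of all tested genes fell in LXR DKO and 6.72% in transgenic. Trib2 and Trib3 encode Tribbles proteins, and that of Trib2 marks C/EBP alpha for breakdown. Trib2 fell in LXR DKO (22.5, 20.6 and 21.6 RPKM against 28.5, 27.0 and 25.1 RPKM in WT, -0.31 ± 0.08, limma adjusted p = 0.0375), a call lost on leaving out any library but LXR DKO 1 and WT 3 (up to 0.121). Trib3 fell in transgenic (1.28, 1.07 and 1.51 RPKM against 2.88, 2.28 and 2.66 RPKM in WT, -0.66 ± 0.16, adjusted p = 0.0331), a call lost without any transgenic library, LXR DKO 3, WT 1 or WT 2 (up to 0.106).

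**Figure D3:**
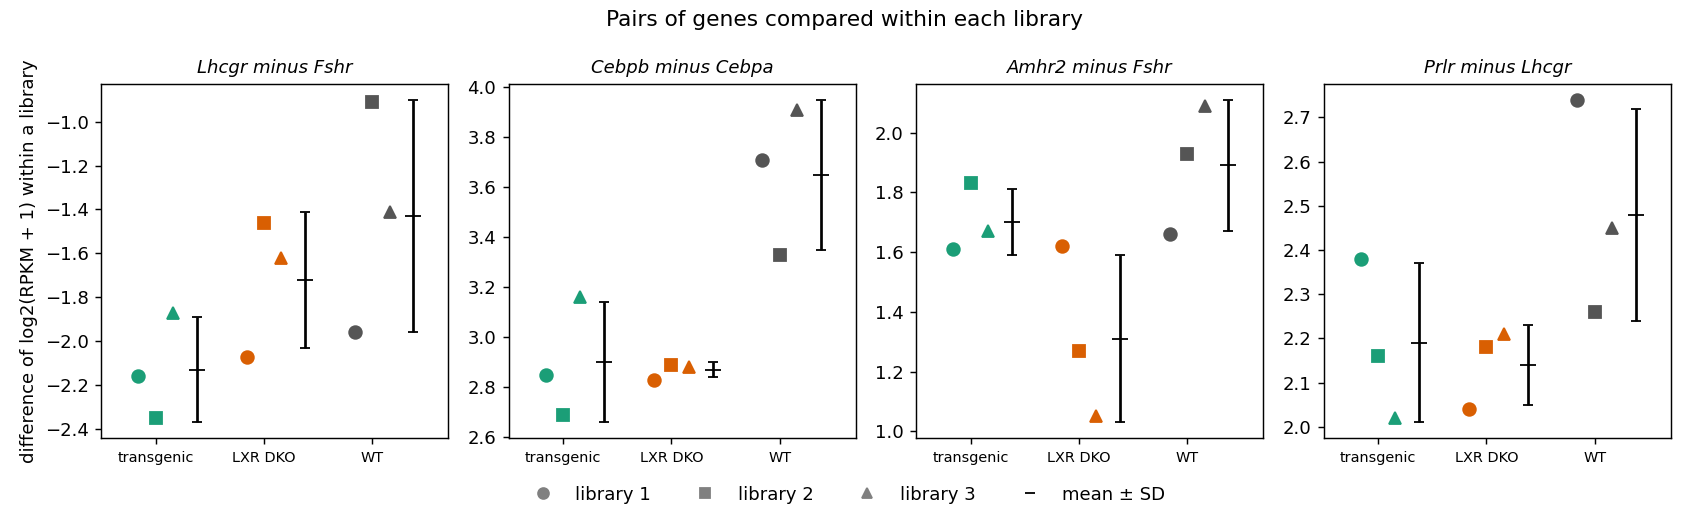
Difference of log2(RPKM + 1) between the members of 4 gene pairs within each library, by genotype, with mean and SD; each panel has its own axis. Cebpb minus Cebpa is 2.69 to 3.16 in the 6 transgenic and LXR DKO libraries and 3.33 to 3.91 in WT, without overlap.

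Cited1 (ENSMUSG00000051159, chromosome X, 102247381 to 102252181, minus strand) encodes a coactivator without a DNA-binding domain that joins CBP and p300 to SMAD4, TFAP2 and estrogen receptors, and in the mouse ovary and mammary gland it is known as a hormone-responsive gene. The 200 bases before the start at the gene's end (chrX:102252182-102252381, RefSeq, GRCm38.p6, minus strand) are shown because it was below WT in both comparisons. Capitals mark a GC box beginning 93 bases and a TATAAA box beginning 13 bases before the start.
Cited1: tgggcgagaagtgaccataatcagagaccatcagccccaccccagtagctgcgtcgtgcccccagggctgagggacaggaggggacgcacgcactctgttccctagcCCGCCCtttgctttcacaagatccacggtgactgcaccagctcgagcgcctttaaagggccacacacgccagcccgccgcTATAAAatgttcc
Further starts are listed for the gene, and the values do not tell which was used. Their windows held a TATAAA box beginning 115 bases and a TGACG core beginning 33 bases before the respective start.

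Cited1 measured 1.11, 1.50 and 0.790 RPKM in transgenic, 1.33, 0.954 and 0.991 RPKM in LXR DKO libraries, and 2.71, 2.54 and 2.76 RPKM in WT 1 to 3, from 47 to 228 reads a library. The WT libraries were close together and above all 6 others, and transgenic and LXR DKO overlapped. Cited1 fell by 59.1% in the LXR DKO mean (log2 fold change -0.81 ± 0.14, 95% interval -1.14 to -0.49, limma adjusted p = 0.0108) and by 57.5% in the transgenic mean (-0.80 ± 0.14, -1.12 to -0.47, adjusted p = 0.0127). At this level the pseudocount of 1 shrinks the change, and with a pseudocount of 0.1 it was -1.23 in LXR DKO and -1.21 in transgenic. The LXR DKO call was lost without LXR DKO 3 (-0.78, adjusted p = 0.0506), and the transgenic call held over all omissions (up to 0.0472). Without both oocyte-rich libraries the adjusted p was 0.0375 for LXR DKO and 0.0384 for transgenic. Transgenic minus LXR DKO was 0.019 ± 0.14 (-0.31 to 0.35, adjusted p = 0.985). In the same libraries the summed granulosa level was lower than in WT, and 4 of 11 tested granulosa markers fell in LXR DKO and 3 of 11 in transgenic, while 3 of the 11 had positive log2 fold changes in each comparison. Their part in the result was not tested. Of 8 listed CITED family genes and partners, 5 were tested and 0 passed the threshold in limma in any comparison.

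Amh (ENSMUSG00000035262, chromosome 10, 80805243 to 80807648, plus strand), whose symbol also stands in the name of the transgene, was listed with 7 to 56 reads a library. It measured 0.207, 0.135 and 0.406 RPKM in transgenic, 0.800, 0.304 and 0.382 RPKM in LXR DKO libraries, and 0.245, 0.307 and 0.255 RPKM in WT. LXR DKO 1, one of the oocyte-rich libraries, was the highest, and all groups overlapped. Exact two-sided permutation tests gave p = 0.2 for LXR DKO against WT, 0.3 for transgenic against LXR DKO and 0.8 for transgenic against WT, where the smallest possible value is 0.1. With 3 libraries a group, no difference in Amh could pass a threshold of 0.05 by this test.

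Amhr2 (ENSMUSG00000023047, chromosome 15, 102445367 to 102454633, plus strand), the AMH receptor gene, was by contrast among the better expressed members. It measured 22.0, 26.3 and 23.0 RPKM in transgenic, 30.7, 13.3 and 15.0 RPKM in LXR DKO libraries, and 25.7, 22.4 and 23.1 RPKM in WT. LXR DKO was split, with LXR DKO 1 the highest and LXR DKO 2 and 3 the lowest of all 9 libraries. LXR DKO minus WT did not pass (-0.35 ± 0.26, 95% interval -0.94 to 0.23, limma adjusted p = 0.434), and transgenic minus WT was -0.00053 ± 0.26 (-0.59 to 0.59, adjusted p = 0.999). Without LXR DKO 1 the first was -0.71 and passed (adjusted p = 0.00906), and without both oocyte-rich libraries it was -0.65 (0.0284). Transgenic minus LXR DKO was 0.35 ± 0.26 (adjusted p = 0.78) and 0.71 without LXR DKO 1 (0.0841). LXR DKO 1 differed from LXR DKO 2 and 3 also in its oocyte markers, which summed to 663 RPKM there against 18.5 and 4.33 RPKM, and the part of this in the values was not tested.

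Amhr2 relative to Fshr within a library was 1.61, 1.83 and 1.67 in transgenic, 1.62, 1.27 and 1.05 in LXR DKO and 1.66, 1.93 and 2.09 in WT, as a difference of log2(RPKM + 1). LXR DKO lay below WT without overlap (-0.58, exact permutation p = 0.1), and transgenic overlapped both. Lhcgr relative to Fshr was -2.16, -2.35 and -1.87 in transgenic, -2.07, -1.46 and -1.62 in LXR DKO and -1.96, -0.91 and -1.41 in WT. Lhcgr was thus below Fshr in RPKM in all 9 libraries, at 0.0762 to 0.442 times its level. This order rests on the exon lengths used, 7645 bases for Lhcgr and 2360 for Fshr. In reads, Lhcgr was above Fshr in WT 2 (640 against 447) and below it in every other library. The genotypes overlapped in the difference (exact permutation tests: transgenic minus WT -0.70, p = 0.2, LXR DKO minus WT -0.29, p = 0.4, and transgenic minus LXR DKO -0.41, p = 0.2). Prlr relative to Lhcgr differed by -0.34 for LXR DKO minus WT (exact permutation p = 0.1) and -0.29 for transgenic minus WT (p = 0.2), but the plain ratio of RPKM values, which was 6.22 to 7.63 in LXR DKO, against 6.44 to 11.6 in WT, overlapped. In all, 12 such comparisons of 4 pairs were made, and with 3 libraries a group none can go below 0.1. Adjusted over these comparisons by the Benjamini-Hochberg method, the smallest p was 0.3.

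The list of AMH signalling held receptor, SMAD and ID genes shared with BMP signalling, as well as Pcsk5 and Furin. Of the 14 listed, 13 were tested, of which 2 fell in LXR DKO and 1 in transgenic against WT, with medians of -0.37 and -0.26. Over all tested genes, 7.12% fell in LXR DKO and 6.72% in transgenic, with medians of 0.017 and 0.015. Id1, a BMP and AMH response gene, fell to 24.2, 26.0 and 26.9 RPKM in transgenic and 39.4, 17.6 and 19.9 RPKM in LXR DKO, against 57.1, 54.8 and 62.1 RPKM in WT. All WT libraries were above all others, and LXR DKO 1 was again the highest of its group (LXR DKO -1.23 ± 0.25, limma adjusted p = 0.0168; transgenic -1.14 ± 0.25, 0.0228). Smad6, the inhibitory SMAD gene of this pathway, fell in LXR DKO (-0.75 ± 0.15, 0.0187). The calls were lost without LXR DKO 2 or 3 for both genes, and for Smad6 also without WT 1 (adjusted p up to 0.0731 and 0.0759), and in transgenic that of Id1 without any transgenic library, WT 1 or WT 2 (up to 0.0753).

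Target genes of FSH and LH were counted in 3 lists. Of 21 tested genes of the follicular FSH programme, 6 fell and 0 rose in LXR DKO (median -0.32) and 6 fell and 1 rose in transgenic libraries (median -0.31). The gene that rose, named after its values were seen, was Irs1, an insulin receptor substrate gene, at 1.06, 1.05 and 1.30 RPKM in transgenic against 0.442, 0.629 and 0.391 RPKM in WT (0.52 ± 0.12, limma adjusted p = 0.0272), a call lost without any 1 of the transgenic libraries or WT 1 (adjusted p up to 0.105) and under 4 other settings (up to 0.226). Of 17 tested genes of the ovulatory LH response, 5 fell in LXR DKO (median -0.43) and 6 in transgenic (median -0.42), with 0 higher in either. Of 20 luteal genes, 4 rose and 1 fell in LXR DKO (median 0.04), and 2 rose and 3 fell in transgenic (median -0.14). For comparison, 3.47% of all tested genes rose and 7.12% fell in LXR DKO, and 5.15% rose and 6.72% fell in transgenic against WT. None of these genes passed between transgenic and LXR DKO. These lists were drawn up with earlier results of the same libraries known. Of the 21 follicular genes, 9 are also granulosa markers (Foxl2, Nr5a2, Inha, Inhba, Esr2, Hsd17b1, Nr5a1, Gata4 and Grem1), among them 3 of the 6 that fell in LXR DKO and 3 of the 6 that fell in transgenic, and 6 of the 20 luteal genes are also luteal markers.

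In the follicular list, Igf1, the granulosa growth factor gene that sensitises cells to FSH, fell to 2.12, 2.39 and 1.87 RPKM in transgenic and 1.60, 1.73 and 1.34 RPKM in LXR DKO, against 4.07, 5.01 and 5.72 RPKM in WT. Every WT library was above every other, and both calls held in all 19 alternatives (LXR DKO -1.21 ± 0.13, limma adjusted p = 0.00135; transgenic -0.92 ± 0.13, 0.00507). Hsd17b1, which forms estradiol, measured 38.8, 51.3 and 34.1 RPKM in transgenic (-1.03 ± 0.22, 0.0229) against 79.8, 91.2 and 83.0 RPKM in WT, with LXR DKO at -1.32 ± 0.22 (0.009). Serpine2, a protease inhibitor gene, fell in transgenic (68.2, 70.2 and 56.4 RPKM against 140, 134 and 124 RPKM in WT, -1.02 ± 0.17, 0.00843), as did Fst, the activin-binding follistatin gene (-0.96 ± 0.18, 0.0143). Inhba, an activin and inhibin subunit gene (-0.89 ± 0.19, 0.0242), and Gata6, a granulosa transcription factor gene (-0.44 ± 0.09, 0.0189), fell in LXR DKO. Inhba also fell in transgenic (-0.76 ± 0.19, limma adjusted p = 0.0393), and Fst also fell in LXR DKO (-0.78 ± 0.18, 0.0286). In LXR DKO the calls of Inhba and Gata6 were lost without LXR DKO 2, LXR DKO 3, WT 1 or WT 2 (adjusted p up to 0.0838 and 0.0717). The same omissions, and that of transgenic 1, ended the call of Fst in LXR DKO (up to 0.104). In transgenic, that of Fst was lost without transgenic 3 (0.0556), and that of Hsd17b1 without transgenic 1, transgenic 3, WT 1 or WT 2 (up to 0.0858). That of Inhba in transgenic was lost without transgenic 1, transgenic 3, LXR DKO 2, WT 1 or WT 2 (up to 0.127).

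In the ovulatory list, Tnfaip6, whose product links the cumulus hyaluronan matrix, had the lowest log2 fold change of all genes in the 9 lists in both comparisons with WT (LXR DKO -1.89 ± 0.17, limma adjusted p = 0.000396; transgenic -1.52 ± 0.17, 0.00134). It measured 136, 158 and 111 RPKM in transgenic and 107, 114 and 89.7 RPKM in LXR DKO, against 450, 391 and 324 RPKM in WT. The early response genes Egr2 (-1.11 ± 0.18, 0.0075, and -0.80 ± 0.18, 0.0266) and Nr4a2 (-0.89 ± 0.15, 0.00959, and -0.77 ± 0.15, 0.0165), and Btc, an EGF-like ligand gene (-0.80 ± 0.18, 0.0274, and -0.95 ± 0.18, 0.0157), fell in LXR DKO and transgenic against WT. Btc measured 5.89, 6.95 and 4.28 RPKM in transgenic and 6.02, 7.60 and 5.48 RPKM in LXR DKO, against 13.1, 12.9 and 9.56 RPKM in WT. In LXR DKO the call of Egr2 was lost without both oocyte-rich libraries (limma adjusted p = 0.0551), and the call of Btc was lost without LXR DKO 1, LXR DKO 3, WT 1 or WT 2 (adjusted p up to 0.108). In transgenic, those of Egr2, Nr4a2 and Btc were each lost without transgenic 3 or WT 2, and variously without transgenic 1 or WT 1 (up to 0.0962, 0.0647 and 0.0564).

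In the luteal list, Ptgfr, the prostaglandin F receptor gene that mediates luteal regression, rose to 6.53, 6.09 and 5.55 RPKM in transgenic and 9.11, 11.1 and 8.48 RPKM in LXR DKO, against 2.74, 3.39 and 1.93 RPKM in WT. The 3 genotypes did not overlap, and both calls held in all 20 alternatives (LXR DKO 1.53 ± 0.16, limma adjusted p = 0.00098; transgenic 0.95 ± 0.16, 0.00908). Adamts1, a protease gene induced through the progesterone receptor, rose in both (1.50 ± 0.17, 0.00152, and 1.17 ± 0.17, 0.00504). Adamts1 was counted in this list and not in the ovulatory list, where no gene rose. Akr1c18, which inactivates progesterone and is repressed by prolactin in the rodent corpus luteum, rose in LXR DKO to 3830, 4270 and 3870 RPKM, against 2530, 2760 and 2080 RPKM in WT (0.71 ± 0.15, 0.0223). Transgenic libraries had 3340, 3650 and 3060 RPKM of Akr1c18 (0.45 ± 0.15, 0.0863). Ctsl, a lysosomal protease gene, rose in LXR DKO (0.56 ± 0.11, 0.0157). Hsd3b1, a progesterone-forming enzyme gene, fell in transgenic to 1080, 1130 and 1020 RPKM, against 1800, 2740 and 2060 RPKM in WT (-1.01 ± 0.18, 0.0113), as did Sfrp4, a secreted WNT antagonist gene of luteal cells (-0.38 ± 0.09, 0.0299). Star, the gene of the steroidogenic acute regulatory protein that brings cholesterol into mitochondria, named here after its values were seen, fell to 68.0, 85.0 and 56.0 RPKM in transgenic and 49.5, 74.7 and 76.8 RPKM in LXR DKO, against 112, 134 and 108 RPKM in WT (LXR DKO -0.83 ± 0.20, limma adjusted p = 0.0333; transgenic -0.77 ± 0.20, 0.0411). Every WT library was above every other library for Star. Each of these 2 calls was lost on leaving out any of 6 single libraries (adjusted p up to 0.0949 in LXR DKO and 0.136 in transgenic). Leaving out LXR DKO 2, LXR DKO 3 or WT 1 ended the call of Akr1c18 (adjusted p up to 0.0767), as did using no filter on low values, only the 2 genotypes, or no oocyte-rich library (up to 0.477). With no filter that of Hsd3b1 was lost (0.0935). Leaving out LXR DKO 3 ended that of Ctsl (0.0635), and leaving out any transgenic library, WT 1 or WT 2 that of Sfrp4 (up to 0.104).

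Settings other than the omission of single libraries ended further calls of the genes named above. In LXR DKO against WT, Socs2, Trib2, Fst, Rgs16, Rgs12, Rgs10, Star, Smad6, Inhba, Id1, Socs3 and Btc were lost without a filter on low values. With only the 2 genotypes in the fit, Gata6, Trib2, Fst, Rgs12, Rgs10, Star, Id1 and Socs3 were lost, and without both oocyte-rich libraries Gata6, Trib2, Rgs16, Rgs12, Star, Smad6 and Btc (limma adjusted p up to 0.13 over these settings). In transgenic against WT, Hsd17b1, Socs2, Sfrp4, Adcy6, Pim1, Rgs16, Pias3, Rgs10, Star, Trib3, Egr2, Inhba and Id1 were lost without the filter. With only the 2 genotypes, Socs2, Adcy6, Pim1, Rgs16 and Pias3 were lost, and without both oocyte-rich libraries Socs2, Sfrp4, Rgs16, Pias3, Trib3, Egr2, Inhba and Btc (up to 0.107).

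**Figure D4:**
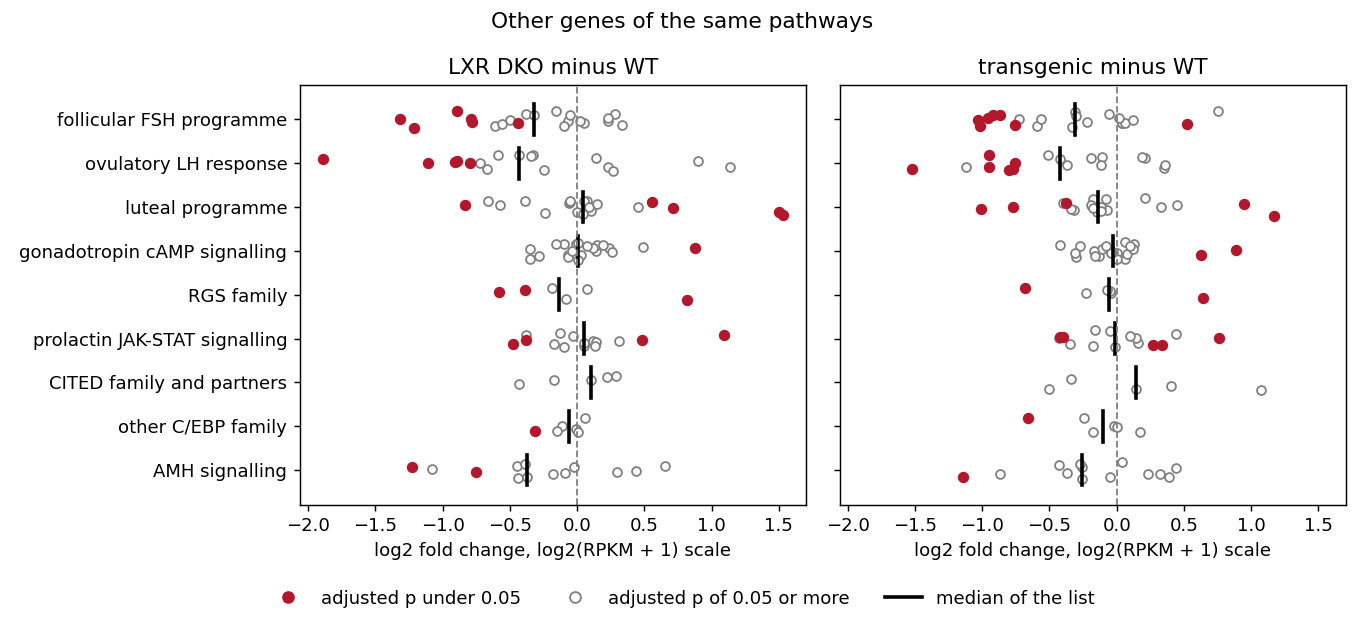
Log2 fold change on the log2(RPKM + 1) scale of each tested gene in the 9 pathway lists, for LXR DKO minus WT and transgenic minus WT, with filled points at an adjusted p under 0.05 and a bar at the median of each list. The follicular and ovulatory lists have medians of -0.43 to -0.31, and the luteal list has filled points on both sides of 0.

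The genes outside the members whose log2(RPKM + 1) followed each member most closely over the 9 libraries were found by Pearson's r, as a description, since the libraries share genotype and the RNA of other cells. For Prlr they were Lpl (r = 0.967), the lipoprotein lipase gene, and Gm26461 (0.964). Lpl measured 6.48, 5.63 and 6.24 RPKM in transgenic, 8.68, 9.18 and 11.0 RPKM in LXR DKO libraries and 20.4, 18.7 and 13.3 RPKM in WT, which is the order of the genotypes for Prlr. For Cited1 they were Dera (0.988) and Ube2j2 (0.983), for Lhcgr Gm5867 (0.942) and Gpr183 (0.93), and for Cebpb Mrip-ps (0.979) and Luc7l3 (0.955). For Amhr2 they were Oog1 (0.949) and Gm2042 (0.946). Oog1, an oocyte gene and 1 of the 20 oocyte markers, measured 4.74, 5.51 and 6.23 RPKM in transgenic, 11.2, 0.268 and 0.248 RPKM in LXR DKO libraries and 7.37, 2.13 and 3.13 RPKM in WT. The sum of the 20 markers was 1110, 4.65 and 6.89 RPKM in WT 1 to 3, where Amhr2 measured 25.7, 22.4 and 23.1 RPKM. It was 663, 18.5 and 4.33 RPKM in LXR DKO 1 to 3, where Amhr2 measured 30.7, 13.3 and 15.0 RPKM. The part of oocyte RNA in the Amhr2 values was not tested. Fshr was followed by Lysmd4 (0.959) and 2600006K01Rik (0.947), Cebpa by Nyx (0.944) and Atxn1l (0.94), and Rgs2 by Gm15564 (0.949) and Rsl24d1 (0.943). Among the 28 pairs of members, Lhcgr and Prlr had the highest r (0.81) and Fshr and Cited1 the lowest (-0.241).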

How the data were processed

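The authors deposited 1 matrix of RPKM values for 54838 genes and 9 libraries, and all its value columns were used. Per the submitters' processing notes, the build was mm10 and the tools were HTSeq 0.5.4p5, HISAT2 2.1.0, DESeq2 1.2.8 and cutadapt, with no role named. The annotation release, strand setting and treatment of reads that map to several places are not stated there, so genes with near-identical copies or opposite-strand neighbours have uncertain values. Columns were matched to samples by name, and the transgenic columns differ from the sample descriptions in 1 letter. From the deposited RPKM, log2(RPKM + 1) was tested with limma 3.58.1 in R 4.3.3, with a trended variance, on the 16422 genes with at least 1 RPKM in at least 3 libraries, in 1 fit of all 9 libraries and with Benjamini-Hochberg adjustment over these genes at a threshold of 0.05. A fold change on this scale understates the change of low genes. Amh, below the filter, and the differences within a library were tested by exact two-sided permutation. Intervals are at 95%. Reads were worked back with GENCODE M21 exon lengths, to within 0.02 reads of a whole number. The scripts were tested on simulated data. The members and lists were chosen with earlier results of these data known. All 9 members were named, as were up to 4 genes past the threshold per list and comparison by smallest adjusted p, the 2 genes most like each tested member by Pearson's r, and the summed cell markers. Alternatives covered the pseudocount, the filter, quantile and median-of-ratios scaling, library weights, a replicate block, voom on worked-back reads, fits of 2 genotypes, and leaving out each library or both libraries rich in oocyte RNA.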

Additional observations from a re-analysis of the deposited data

How the results depend on the processing

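The members' values were recomputed under up to 20 alternatives. The calls of Prlr and Cited1 in transgenic against WT held under each one that could test them (Cited1 and Lhcgr drop out at a filter of RPKM 5). The number of genes past the threshold for LXR DKO minus WT, 1739, was 1032 without a filter, 2823 with weighted libraries, 807 with only these 2 genotypes, 1145 without both oocyte-rich libraries and 609 to 2140 without single libraries. For transgenic minus LXR DKO, 19, it was 31 with quantile scaling, 159 with weights, 93 with 2 genotypes and 6 to 150 without single libraries. For transgenic minus WT, 1949, it was 1096 without a filter, 4431 with weights, 1248 without both oocyte-rich libraries and 650 to 3555 without single libraries. Same-numbered libraries had correlations of their deviations from the group means of -0.293 to 0.672, so the numbers were not taken as pairing; a replicate block gave 1178, 8 and 1513 genes in the same order of comparisons and changed no member's call. Weighted libraries moved LXR DKO minus WT to -0.48 for Prlr (adjusted p = 0.045) and -0.83 for Cebpb (0.0121), both then past the threshold, and to -0.0012 for Fshr and -0.13 for Cebpa. They moved transgenic minus WT to -0.58 for Lhcgr and -0.80 for Cebpb, both then past it, and to -0.11 for Cebpa, and transgenic minus LXR DKO to 0.089 for Fshr and 0.022 for Cebpa. Without both oocyte-rich libraries Amhr2 was -0.65 for LXR DKO minus WT, past the threshold, and 0.056 for transgenic minus WT, while transgenic minus LXR DKO was 0.17 for Fshr and 0.085 for Cebpa. Quantile scaling gave -0.041 for Cited1, transgenic minus LXR DKO, and 0.035 for Amhr2, transgenic minus WT; median-of-ratios scaling gave -0.012 for Cebpb, transgenic minus LXR DKO. A pseudocount of 0.1 gave 0.03 for Prlr minus Lhcgr, transgenic minus WT. Without single libraries, LXR DKO minus WT ran from -0.90 to -0.77 for Cited1, -0.52 to -0.31 for Prlr, -0.83 to -0.40 for Cebpb, -0.71 to -0.13 for Amhr2, -0.17 to 0.14 for Lhcgr, -0.18 to 0.35 for Cebpa and -0.30 to 0.042 for Rgs2. Transgenic minus LXR DKO ran from -0.24 to 0.17 for Fshr, -0.10 to 0.14 for Cited1, -0.10 to 0.085 for Cebpa, -0.10 to 0.10 for Cebpb, -0.10 to 0.14 for Cebpb minus Cebpa and -0.05 to 0.13 for Prlr minus Lhcgr. Transgenic minus WT ran from -0.82 to -0.39 for Cebpb, -0.20 to 0.33 for Cebpa and -0.074 to 0.056 for Amhr2. The cause of these shifts was not tested. Of the pathway list calls, 7 of 27 in LXR DKO and 6 of 29 in transgenic against WT held in all alternatives, and 9 and 7 over the omission of single libraries. Depth was lowest for Amh, with 7 to 56 reads a library, followed by Cited1, with 47 to 228.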
